A study of Arabidopsis thaliana with 14 samples.

Results

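Late embryogenesis abundant (LEA) genes are named for proteins that build up late in seed development, as the embryo dries. The proteins are small, strongly hydrophilic and mostly unfolded in water, and many are also made in leaves and roots under drought, cold, salt or the hormone abscisic acid. They are thought to shield membranes and enzymes from water loss, and they fall into families that share short repeated motifs rather than one overall fold. Of the 13513 probe sets that the annotation ties to a single gene, among 22810 on the ATH1 array, the 7 described here report AT3G15670, AT3G17520, AT3G02480, AT3G53040, AT2G23110, LEA18 (AT2G35300) and LEA4-5 (AT5G06760). They were chosen by their measured signals, which were high with compound 7606596 on these same arrays, and the comparison used for the choice is not recorded. Every value of 7606596 for these genes below is therefore a description without a test.

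The arrays measured RNA of whole Arabidopsis seedlings of the wild type Col-0, on day 6 after germination. Before that the seedlings had grown on agar and spent their last day in liquid medium. There were 7 groups of 2 arrays: 3 groups without a compound, collected at 0 h, 3 h or 12 h, and 4 groups given 50 µM of compound 7606596 or of compound 5929745 for 3 h or 12 h. Both compounds are known here only by these code names, and the labels say neither whether untreated seedlings received a solvent nor at which hour of the day each group was collected. The labels number the replicates of each group without naming separate cultures, so the p-values measure the spread between these samples, which may be technical.

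Values are MAS5 signals, a linear intensity that the authors scaled on each array, given with SD over n = 2 arrays. Differences are on the scale of log2(signal + 16), with standard errors (SE) from limma, and a gene was called at an adjusted p under 0.05 over the 15922 probe sets that passed a filter on mean signal. Replicate arrays correlated with r of 0.983 to 0.989 across probe sets, which are not independent replicates. Poly-A controls, bacterial transcripts spiked into each RNA sample, averaged 6.52 to 6.71 on the log2 scale in untreated seedlings of 3 h or 12 h (4 arrays) and 4.80 to 5.34 on the other 10. Comparisons of those untreated arrays with any other group therefore cross a technical difference, and its part in the results was not tested. Shoot markers were bright on every array (RCA and LHCB4.1 summed to 38236 to 67177, lower at 12 h in all conditions). The 4 measured root markers, PYK10, AT5G17820, EXPA7 and EXPA18, summed to 11631 to 21093, most of it from PYK10 (10975 to 20299). EXPA7 went down to 43.5 and EXPA18 to 24.5, near or below the filter level of 42.3. Of 23 listed seed maturation genes, 3 had a probe set of their own, AT1G03890, AT3G01570 and AT3G18570, and all 3 were below the filter, so the 7 genes could not be set against seed storage genes. In whole seedlings, fewer cells of a type and less RNA per cell cannot be told apart.

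The 7 genes shared an outline over the groups. All 7 had lower means at 12 h than at 0 h, both in untreated seedlings and with 5929745. With 5929745, 6 of the 7 differences passed a test that the choice of the genes may have favoured. With 7606596 the means were 0.978 to 4.26 times those at 0 h. Only AT3G02480 and AT2G23110 were more than 2 times as high with 7606596 at 3 h as at 0 h.

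**Figure D1:**
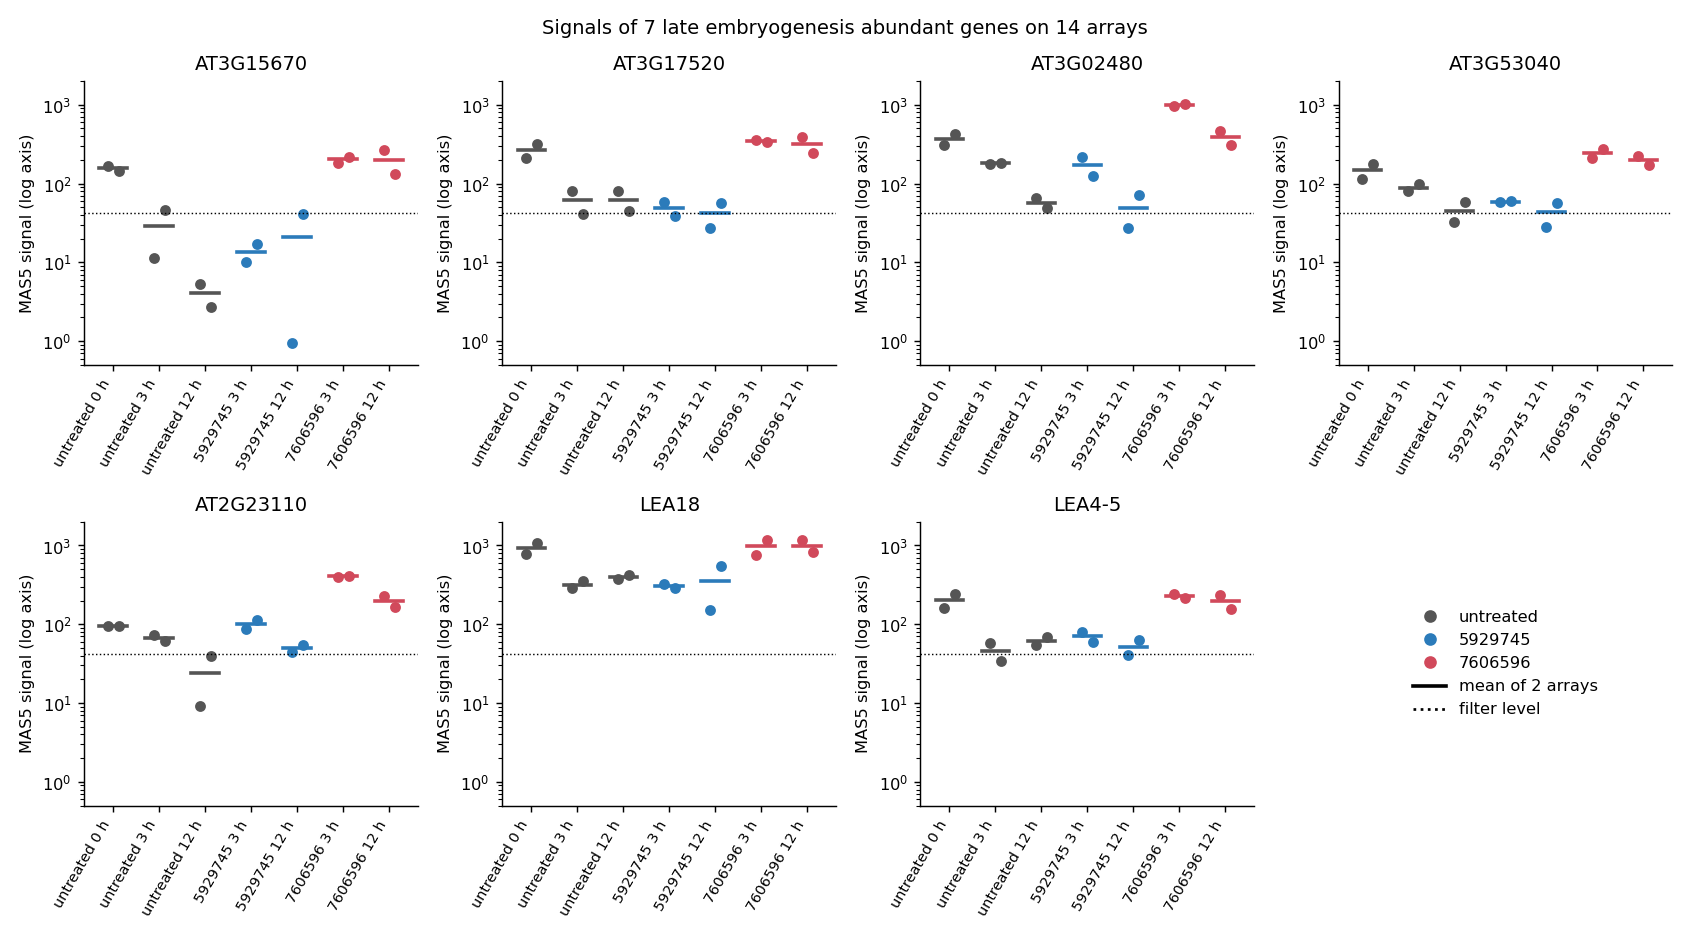
MAS5 signal (log axis) of each of the 7 genes on each of the 14 arrays, by group; bars are means of 2 arrays and the dotted line is the filter level of 42.3. Group means with 7606596 are 0.978 to 4.26 times the 0 h mean, with some arrays below both 0 h arrays. These are LEA18 at 767 at 3 h, and AT3G15670 at 134, AT3G02480 at 311 and LEA4-5 at 158 at 12 h. All untreated arrays of 3 h and 12 h lie below the 0 h arrays.

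LEA18 and LEA4-5 belong to the family of small LEA proteins that also holds AtLEA4-1, and loss of its members makes Arabidopsis plants more sensitive to water deficit. LEA18 had signals of 776 and 1078 at 0 h, 286 and 349 in untreated seedlings at 3 h, and 375 and 428 in untreated seedlings at 12 h. With 5929745 it had signals of 325 and 288 at 3 h, and of 154 and 547 at 12 h. With 7606596 it had signals of 767 and 1180 at 3 h and of 1174 and 817 at 12 h. The arrays with 7606596 covered the same range as those of 0 h, and all arrays of the other groups lay below both of these ranges. The means were 974 ± 292 at 3 h and 996 ± 252 at 12 h with 7606596 against 927 ± 214 at 0 h, ratios of 1.05 and 1.07. The pair of 5929745 arrays at 12 h lay far apart (350 ± 278), and no order among the 4 lower groups can be read across that spread.

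LEA4-5 had signals of 163 and 241 at 0 h. In untreated seedlings it had signals of 58.3 and 34.5 at 3 h and of 54.7 and 68.4 at 12 h, and with 5929745 of 80.3 and 59.7 at 3 h and 40.9 and 63.2 at 12 h. With 7606596 it had signals of 245 and 215 at 3 h and of 237 and 158 at 12 h. These overlapped the 0 h arrays at both times, and all arrays of the 4 lower groups lay below them. The ratio of means to 0 h (202 ± 55.5) was 1.14 at 3 h (230 ± 21.4) and 0.978 at 12 h (197 ± 55.5).

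AT3G15670, AT3G17520, AT3G02480 and AT3G53040 encode proteins of a second family, built of repeats that can fold into helices as they dry. All 4 lie on chromosome 3, and the other members lie on chromosome 2 (AT2G23110 and LEA18) and chromosome 5 (LEA4-5). AT3G15670 had the widest span. Its signals were 167 and 145 at 0 h, 11.3 and 46.1 in untreated seedlings at 3 h, and 5.38 and 2.75 in untreated seedlings at 12 h. With 5929745 they were 10.1 and 17.2 at 3 h and 0.939 and 41.0 at 12 h. In these 4 groups the mean was below the filter level, so their order among themselves carries little weight, and without the 7606596 arrays the gene's mean of 44.7 would only just reach the filter. With 7606596 the signals were 184 and 219 at 3 h and 270 and 134 at 12 h, means of 202 ± 24.7 and 202 ± 96.7, each 1.29 times the 0 h mean of 156 ± 14.9. Only the 3 h arrays lay above both 0 h arrays.

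AT3G17520 had signals of 212 and 320 at 0 h. They were 80.4 and 41.6 in untreated seedlings at 3 h, 79.4 and 44.7 in untreated seedlings at 12 h, 58.0 and 39.1 with 5929745 at 3 h, and 27.7 and 56.8 with 5929745 at 12 h. With 7606596 they were 362 and 334 at 3 h and 391 and 242 at 12 h. The 4 lower groups overlapped one another, and the lowest of the 7606596 arrays was above all of them. The ratio of means to 0 h (266 ± 76.1) was 1.31 at 3 h (348 ± 19.7) and 1.19 at 12 h (316 ± 105), and at 12 h the arrays overlapped those of 0 h.

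AT3G53040 had a smaller span than these. Its signals were 116 and 179 at 0 h, 79.6 and 98.4 in untreated seedlings at 3 h, and 32.9 and 57.8 in untreated seedlings at 12 h. With 5929745 they were 57.6 and 59.8 at 3 h and 28.5 and 57.4 at 12 h. With 7606596 they were 212 and 278 at 3 h and 224 and 170 at 12 h. Both 3 h arrays were above the 0 h arrays, at 1.66 times the mean of 147 ± 44.6, while the 12 h arrays overlapped them at 1.34 times.

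AT3G02480 stood above its 0 h level with 7606596 at 3 h. Its signals were 312 and 428 at 0 h, 176 and 185 in untreated seedlings at 3 h, and 65.8 and 48.4 in untreated seedlings at 12 h. With 5929745 they were 216 and 126 at 3 h and 27.2 and 71.8 at 12 h. With 7606596 they were 976 and 1018 at 3 h and 466 and 311 at 12 h. The 3 h mean of 997 ± 30.2 was 2.70 times the 0 h mean of 370 ± 81.8 with no overlap, and the 12 h mean of 388 ± 109 was 1.05 times it with overlap. This gene was thus lower at 12 h than at 3 h in all 3 conditions, with no overlap of arrays in any of them.

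AT2G23110 is a gene of a further LEA family, first named from a bean protein that builds up under water deficit. It had signals of 94.7 and 95.6 at 0 h, 73.9 and 61.6 in untreated seedlings at 3 h, and 9.13 and 39.6 in untreated seedlings at 12 h. With 5929745 they were 87.6 and 115 at 3 h, which spans the 0 h arrays, and 44.8 and 54.5 at 12 h. With 7606596 they were 400 and 410 at 3 h and 228 and 163 at 12 h. This was the single gene of the 7 that stood above both 0 h arrays at both times with 7606596, at 4.26 times the mean of 95.1 ± 0.658 at 3 h (405 ± 7.35) and 2.06 times at 12 h (196 ± 45.8). It was also the only one whose 5929745 arrays overlapped those of 0 h at 3 h.

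Seedlings with 5929745 were compared with those at 0 h, on arrays with like poly-A signals that take no part in the difference of 7606596 from untreated seedlings. If the genes were also picked on their difference from 5929745, low values with 5929745 would be favoured, and these p-values would not be free of the choice. After 3 h of 5929745, 6 of 7 genes were lower than at 0 h, where 4.13% of all probe sets tested were called lower. The median difference of the 7 genes was -1.33, against 0.02 over all probe sets tested. AT3G15670 fell by 2.54 ± 0.47 on the log2 scale (limma, adjusted p = 0.00138) and AT3G17520 by 2.11 ± 0.31 (adjusted p = 0.000202). Both 5929745 arrays of AT3G15670 (10.1 and 17.2) were below the filter level. That gene passed the filter only through its 0 h and 7606596 arrays, so its call lends the count little weight. LEA4-5 fell by 1.33 ± 0.27 (adjusted p = 0.00295) and LEA18 by 1.53 ± 0.35 (adjusted p = 0.00783). AT3G53040 fell by 1.10 ± 0.28 (adjusted p = 0.0162) and AT3G02480 by 1.07 ± 0.28 (adjusted p = 0.0198). AT2G23110 differed by 0.07 ± 0.29 (adjusted p = 0.932). In 4 of them the call rested on single arrays: AT3G02480, AT3G53040, LEA18 and LEA4-5 were not called without 0 h replicate 2 (adjusted p 0.0648 to 0.198) or without 5929745 3 h replicate 2 (adjusted p 0.0547 to 0.280), which leaves 2 calls. AT3G53040 also lost its call without 5929745 3 h replicate 1 (adjusted p = 0.0904). Without the filter AT3G02480 and AT3G53040 had an adjusted p of 0.0684 and 0.053, and without a variance trend in the fit AT3G02480 and LEA18 had one of 0.0741 and 0.0559.

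After 12 h of 5929745 the same 6 genes were lower than at 0 h, where 12.5% of all probe sets tested were called lower, and the median of the 7 genes was -1.68 against 0.04 over all. AT3G02480 fell by 2.63 ± 0.28 (limma, adjusted p = 8.96e-07), AT3G15670 by 2.47 ± 0.47 (adjusted p = 0.00048) and AT3G17520 by 2.29 ± 0.31 (adjusted p = 1.68e-05). AT3G15670 was again below the filter level on both 5929745 arrays (0.939 and 41.0). LEA4-5 fell by 1.68 ± 0.27 (adjusted p = 8.79e-05), LEA18 by 1.59 ± 0.35 (adjusted p = 0.0018) and AT3G53040 by 1.49 ± 0.28 (adjusted p = 0.00046). These 6 calls held on leaving out any single array. AT2G23110 differed by -0.76 ± 0.29 (adjusted p = 0.0547), a value just outside the threshold. Against 0 h, then, the genes that passed the test were lower with 5929745, by p-values that may not be free of the choice. Untreated seedlings were lower than 0 h too, with medians of -1.49 at 3 h and -1.57 at 12 h. The lower values are thus not shown to belong to 5929745. With 7606596 the differences from 0 h, not tested, were -0.03 to 1.92.

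Untreated seedlings are described against 0 h without a test, because their arrays may have entered the choice of the genes, which would favour low untreated values. Their arrays also differ from those of 0 h in poly-A signals. Both untreated arrays lay below both 0 h arrays for 7 of 7 genes at 3 h and at 12 h, as they did for 23.7% and 30.4% of all probe sets. At 3 h the differences were -2.06 ± 0.47 for AT3G15670, -1.89 ± 0.31 for AT3G17520, -1.81 ± 0.27 for LEA4-5, -1.49 ± 0.35 for LEA18, -0.96 ± 0.28 for AT3G02480, -0.61 ± 0.28 for AT3G53040 and -0.41 ± 0.29 for AT2G23110. At 12 h they were -3.10 ± 0.47 for AT3G15670, -2.39 ± 0.28 for AT3G02480 and -1.57 ± 0.29 for AT2G23110, and -1.86 to -1.16 for the other 4 genes. The fit called 5 of 7 genes lower at 3 h and 7 of 7 at 12 h (5.4% and 15.2% of all probe sets), counts from which nothing is read here.

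**Figure D2:**
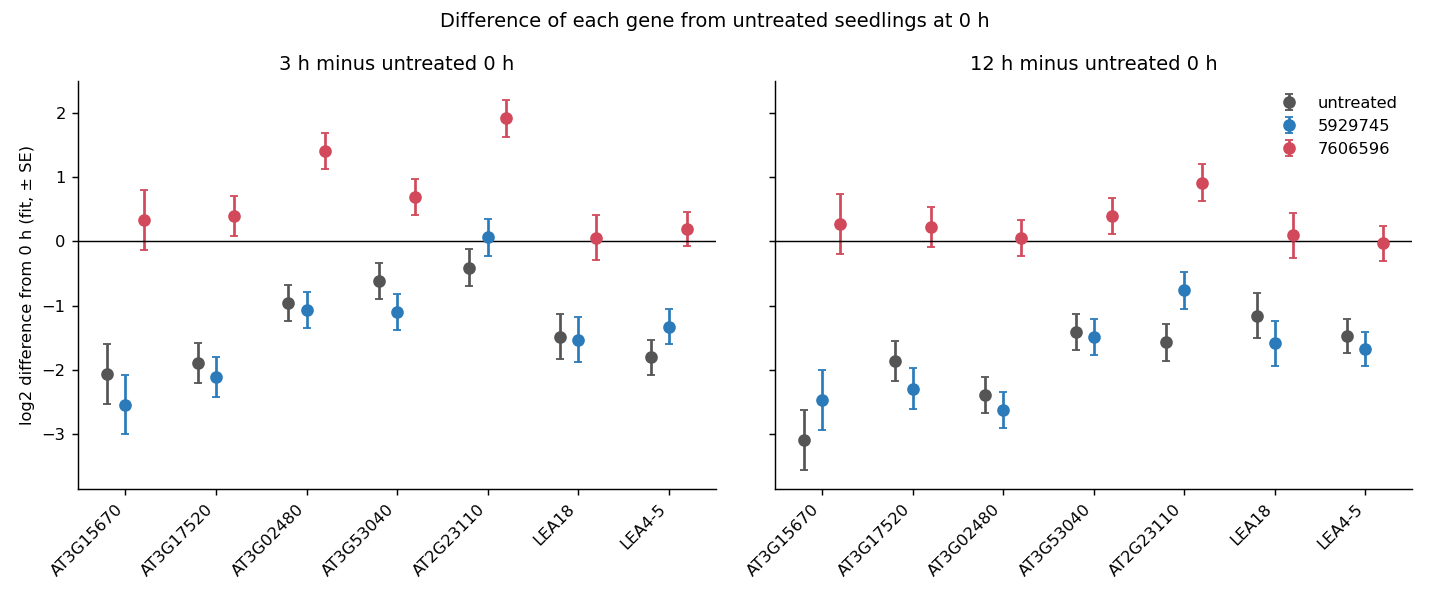
Difference of each gene from untreated seedlings at 0 h, on the scale of log2(signal + 16), at 3 h and 12 h, with SE from the fit. Points with 7606596 lie between -0.03 and 1.92, and those of untreated and 5929745 seedlings between -3.10 and 0.07.

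The plot of differences from 0 h also shows how the values with 7606596 divide. At 3 h they were 1.92 ± 0.29 for AT2G23110, 1.41 ± 0.28 for AT3G02480 and 0.69 ± 0.28 for AT3G53040, and 0.06 to 0.39 for the other 4. Both 7606596 arrays lay above both 0 h arrays for 5 of 7 genes at 3 h (25.6% of all probe sets tested) and for 1 of 7 at 12 h (34.8%). LEA18 and LEA4-5 were the genes that overlapped 0 h at both times. Between 3 h and 12 h of 7606596, AT3G02480 differed by -1.35 ± 0.28 and AT2G23110 by -1.01 ± 0.29, and the other 5 genes by -0.29 to 0.04.

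Between 3 h and 12 h, untreated seedlings are again described without a test. Both 12 h arrays lay below both 3 h arrays for 4 of 7 genes, as they did for 32.4% of all probe sets. For LEA18 both 12 h arrays (375 and 428) lay above both 3 h arrays (286 and 349). The differences were -1.44 ± 0.28 for AT3G02480, -1.16 ± 0.29 for AT2G23110, -1.04 ± 0.47 for AT3G15670 and -0.80 ± 0.28 for AT3G53040, and 0.03 to 0.33 for the other 3. In AT2G23110 the size of the difference rests on untreated 12 h replicate 1, the array with its signal of 9.13, without which it was -0.59. The fit called 3 of 7 lower (16% of all probe sets), and nothing is read from this count.

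With 5929745, 2 of 7 genes were lower at 12 h than at 3 h, where 11.5% of all probe sets tested were called lower. AT3G02480 fell by 1.56 ± 0.28 (limma, adjusted p = 0.000433) and AT2G23110 by 0.83 ± 0.29 (adjusted p = 0.0421). The call of AT2G23110 was lost on leaving out any one of the 4 arrays compared (adjusted p 0.0675 to 0.238). LEA18 differed by -0.06 ± 0.35 (adjusted p = 0.926), a mean of arrays that went opposite ways: it was 0.81 higher without 5929745 12 h replicate 1 (adjusted p = 0.0299) and 0.92 lower without replicate 2 (-0.92, adjusted p = 0.0127). AT3G53040 differed by -0.39 ± 0.28 (limma, adjusted p = 0.344). Its 12 h arrays (28.5 and 57.4) and 3 h arrays (57.6 and 59.8) nearly touched. Whether the genes differ from one another in their change over time was not tested.

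The compounds were compared at the same dose and times, at 3 h and at 12 h. With 7606596 all 7 genes were above 5929745 without overlap of arrays at both times, where 18.8% of all probe sets tested did so at 3 h and 16.1% at 12 h. Since the genes were chosen for a response to 7606596, these counts are only a description. At 3 h the differences were 2.88 ± 0.47 for AT3G15670, 2.51 ± 0.31 for AT3G17520, 2.48 ± 0.28 for AT3G02480, 1.85 ± 0.29 for AT2G23110, 1.79 ± 0.28 for AT3G53040, 1.59 ± 0.35 for LEA18 and 1.52 ± 0.27 for LEA4-5. At 12 h they were 1.64 to 2.74, with the smallest in LEA4-5 and the largest in AT3G15670. Against untreated seedlings all 7 genes were above without overlap too (22.8% of all probe sets at 3 h and 21.6% at 12 h), by 1.31 to 2.40 at 3 h and 1.26 to 3.37 at 12 h. These differences from the untreated arrays cross the poly-A levels, and those from 5929745 do not.

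Between 5929745 and untreated seedlings of the same time no difference passed the test. The untreated arrays are shared with the difference that the choice of the genes may have used, and they have the higher poly-A signals. At 3 h 0 of 7 genes were called by limma, 0 had an unadjusted p under 0.05, and 1.15% of all probe sets tested were called. The differences were -0.49 ± 0.28 for AT3G53040 (95% interval -1.07 to 0.10), -0.48 ± 0.47 for AT3G15670 (-1.46 to 0.50), -0.22 ± 0.31 for AT3G17520 (-0.88 to 0.44) and -0.12 ± 0.28 for AT3G02480 (-0.71 to 0.48). For the others they were -0.05 ± 0.35 for LEA18 (-0.78 to 0.69), 0.48 ± 0.27 for LEA4-5 (-0.08 to 1.04) and 0.48 ± 0.29 for AT2G23110 (-0.13 to 1.09). The intervals leave room for a difference of 1 on the log2 scale in 4 of these genes, so the test does not show that 5929745 and untreated seedlings were alike.

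At 12 h 0 of 7 genes were called by limma, 1 had an unadjusted p under 0.05, and 1.4% of all probe sets tested were called. That gene was AT2G23110, at 0.81 ± 0.29 (95% interval 0.20 to 1.42, adjusted p = 0.183), with both 5929745 arrays above both untreated arrays. It was called without untreated 12 h replicate 2 (1.38, adjusted p = 0.0312), and LEA18, at -0.43 ± 0.35, was called without 5929745 12 h replicate 2 (-1.30, adjusted p = 0.0254). The other intervals held 0: -0.35 to 1.61 for AT3G15670, -1.09 to 0.23 for AT3G17520, -0.83 to 0.36 for AT3G02480, -0.66 to 0.52 for AT3G53040, -1.16 to 0.30 for LEA18 and -0.76 to 0.36 for LEA4-5. The change of the 5929745 effect between 3 h and 12 h was called for 0 of 7 genes by limma (adjusted p 0.518 to 0.931), 0 had an unadjusted p under 0.05, and 0.113% of all probe sets tested were called.

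In some groups, though not in all, the genes also moved together between the 2 arrays. On the 12 h arrays of 7606596 replicate 1 was higher than replicate 2 for all 7 genes, by 0.36 to 0.94 on the log2 scale. On the 12 h arrays of 5929745 replicate 2 was higher for all 7, with replicate 1 minus replicate 2 from -1.75 to -0.21. At 0 h replicate 2 was higher for 6 of 7. The other groups were split. Replicate 1 was higher for 2 of 7 with 7606596 at 3 h and 4 of 7 with 5929745 at 3 h. It was higher for 3 of 7 in untreated seedlings of 3 h and of 12 h. Over all probe sets the median difference between the arrays of a group was -0.02 to 0.01, as the scaling of each array leaves it. Replicate 1 was higher for 50.2% of probe sets tested with 7606596 at 12 h, 51.1% with 5929745 at 12 h and 46.7% at 0 h. In the other groups the share was 48.7% to 51.1%. The 7 genes on a pair of arrays are not independent observations. Over the 14 arrays the 21 pairs of genes correlated with r of 0.64 to 0.96 (median 0.87). The closest pair was AT3G17520 and LEA4-5, of different families, and the least close AT2G23110 and LEA18. These correlations are across arrays that share groups and are partly fixed by the choice of the genes.

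**Figure D3:**
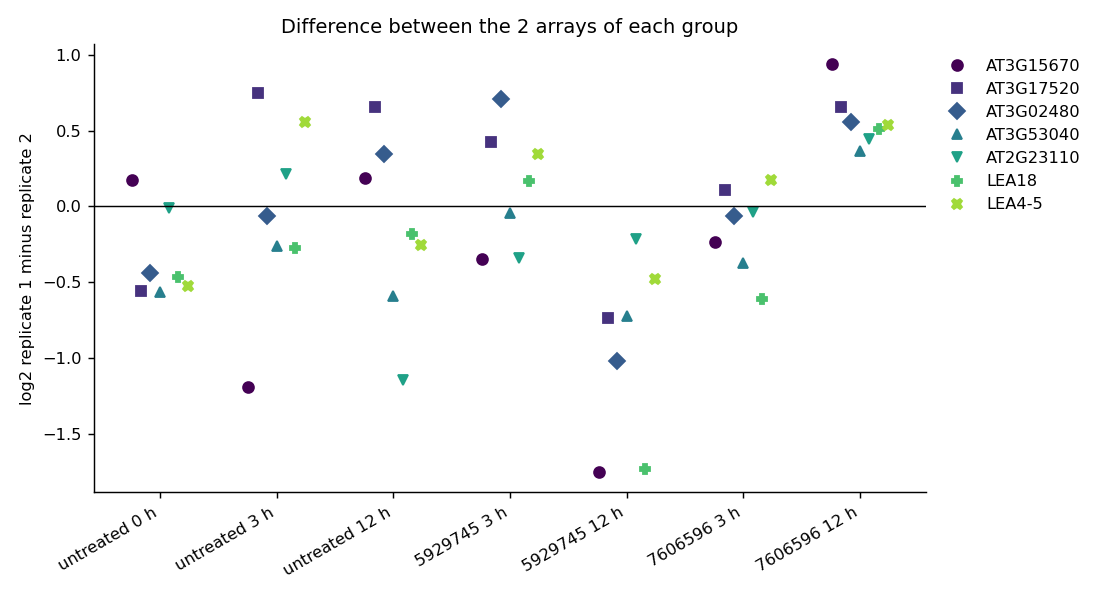
Difference between the 2 arrays of each group for each of the 7 genes (log2 of signal + 16, replicate 1 minus replicate 2). With 7606596 at 12 h all 7 points lie above 0 (0.36 to 0.94), and with 5929745 at 12 h all 7 lie below 0 (-1.75 to -0.21). In every other group points lie on both sides of 0.

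Of 44 other genes of the LEA families, 28 had a probe set of their own and 14 passed the filter. The 44 were listed by family with earlier results of these data known, among them values of LTI30 and COR47. Counts of these genes below are therefore only a description. At 3 h of 7606596, 5 of 14 were called higher than in untreated seedlings and 0 lower. Of all probe sets tested, 3.09% were called higher and 1.93% lower. At an unadjusted p under 0.05 there were 8 of 14, a threshold at which no share of all probe sets was counted. For LEA (AT2G21490) and AT4G36600 the mean over the arrays without 7606596 was 40.6 and 36.9, below the filter level, so both entered the test only through high values with 7606596 and their calls lend the count no weight. The median of the 14 genes was 0.30, against -0.02 over all. The dehydrin LTI30, which is induced by cold and drought, was higher by 1.85 ± 0.19 (limma, adjusted p = 7.47e-06), from 745 ± 59.2 to 2730 ± 30.7. AtLEA4-1, the closest relative of LEA18 and LEA4-5 in the list, was higher by 1.35 ± 0.23 (adjusted p = 0.00184), from 365 ± 15.4 to 956 ± 19.7. The dehydrin COR47, another cold-regulated gene, was higher by 0.60 ± 0.12 (adjusted p = 0.00723), AT2G21490 (LEA), also a dehydrin, by 1.61 ± 0.39 (adjusted p = 0.0214), and AT4G36600 by 1.37 ± 0.38 (adjusted p = 0.0422). Only LTI30 and AtLEA4-1 held on leaving out any single array. LEA and AT4G36600 lost their calls without any 1 of the 4 arrays compared. COR47 lost its call without 7606596 3 h replicate 2 (0.53) or untreated 3 h replicate 1 (0.56). Leaving out 7606596 3 h replicate 2 also added a call in the lower direction. With 7606596 against 5929745 at 3 h, on arrays with like poly-A signals, COR47 differed by 0.31 ± 0.12 (limma, adjusted p = 0.418). LTI30 differed by 1.14 ± 0.19 (adjusted p = 0.00322) and AtLEA4-1 by 1.57 ± 0.23 (adjusted p = 0.000814). LEA differed by 1.84 ± 0.39 and AT4G36600 by 2.21 ± 0.38.

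At 12 h of 7606596, AtLEA4-1 (1.31 ± 0.23, limma, adjusted p = 0.0057) and LTI30 (0.89 ± 0.19, adjusted p = 0.0247) were higher than in untreated seedlings and AT2G44060 was lower (-0.46 ± 0.11, adjusted p = 0.047). That is 2 of 14 higher and 1 of 14 lower, where 1.14% and 0.402% of all probe sets tested were called in these directions. At an unadjusted p under 0.05 there were 7 of 14, among them LEA and AT4G36600, which passed the filter only through 7606596. No share of all probe sets was counted at that threshold. None of these 3 calls remained without 7606596 12 h replicate 1 (adjusted p 0.0874 to 0.365) or without untreated 12 h replicate 1 (adjusted p 0.121 to 0.371). Without untreated 12 h replicate 2, LTI30 (adjusted p = 0.0682) and AT2G44060 (adjusted p = 0.157) were lost. With 7606596 against 5929745 at 12 h, AtLEA4-1 differed by 1.34 ± 0.23 (limma, adjusted p = 0.00629). LTI30 differed by 0.68 ± 0.19 (adjusted p = 0.148) and AT2G44060 by -0.26 ± 0.11 (adjusted p = 0.522). Between 5929745 and untreated seedlings, 0 of 14 were called by limma at 3 h and at 12 h, with 5 and 3 at an unadjusted p under 0.05. Since 1.15% and 1.4% of all probe sets were called, counts of 0 are near that background. LTI30 differed by 0.72 ± 0.19 at 3 h (adjusted p = 0.0749) and COR47 by 0.46 ± 0.12 at 12 h (adjusted p = 0.0676). Of 34 listed genes of abscisic acid signalling and metabolism, 0 had a probe set that the annotation ties to them alone, so the hormone response could not be set beside these genes.

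**Figure D4:**
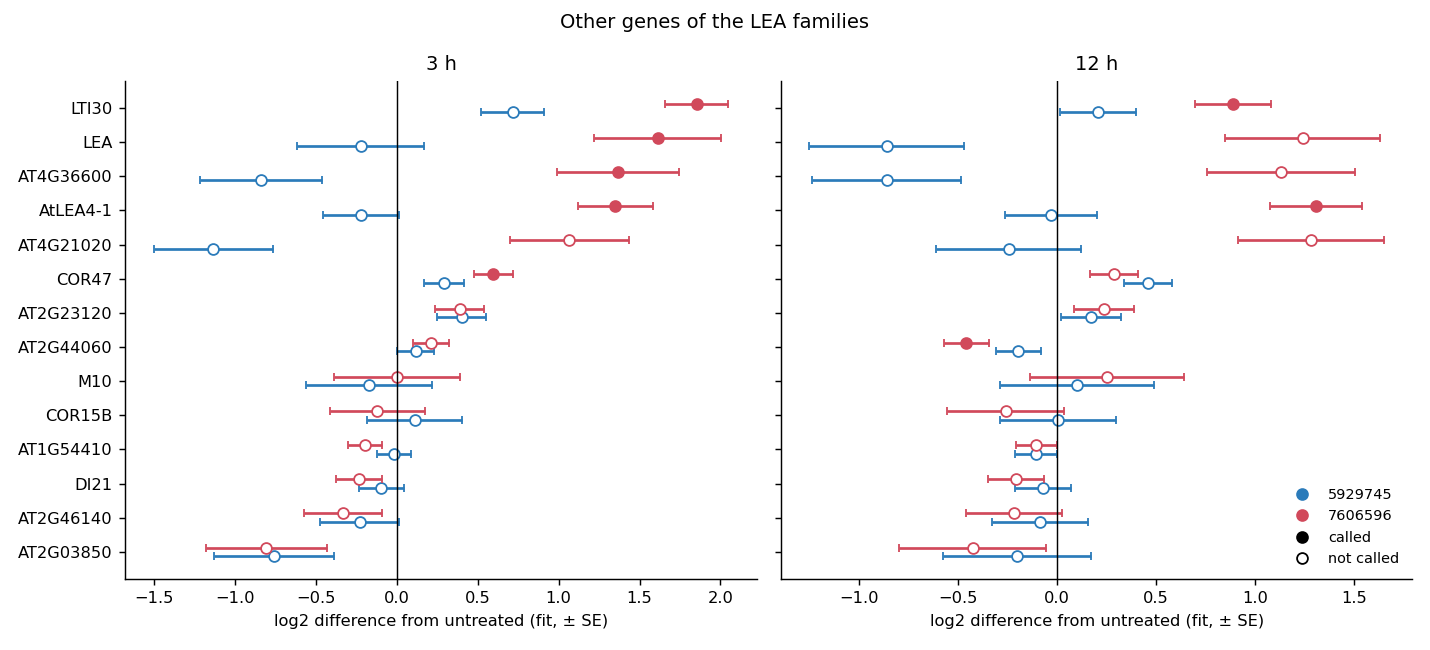
Difference from untreated seedlings of the same time (log2 of signal + 16, with SE from the fit) of the 14 measured genes of the LEA families outside the 7, for both compounds at 3 h and 12 h; filled points were called at an adjusted p under 0.05. With 7606596 there were 5 filled points at 3 h and 3 at 12 h, and with 5929745 there were 0 at both times.

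Other probe sets of single genes were ranked by how closely they followed the mean of the 7 genes over the 14 arrays, among 981 whose group means spanned at least 1 on the log2 scale and whose mean signal reached the median of all. The closest was AtLEA4-1, with r of 0.98, at 660 ± 10.1 at 0 h, 956 ± 19.7 and 715 ± 74.6 with 7606596, and 280 to 365 in the other 4 groups. After it came AT1G68620 (r of 0.90), AT3G04000 (0.87), AT1G14730 (0.86), LTI30 (0.85) and AT1G67360 (0.84). AT1G67360 stood at 817 ± 17.8 with 7606596 at 3 h against 261 ± 35.1 at 0 h. That log2 difference of 1.59 lay between those of AT3G02480 (1.41) and AT2G23110 (1.92). These correlations are a description over arrays that share groups, and r does not set the genes in a common pathway.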

How the data were processed

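The authors deposited signals made with MAS5, per the submitters' processing notes (version not given in the sources used here). The unit is a linear intensity, scaled within each array by the authors, and the mean of the central 96% of probe sets was 500.05 on every array. Scanner files and detection calls were not used here, and 0 columns of values were left unused. The members and lists were chosen with earlier results of these data known.

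The 64 control probe sets were not fitted. Of the rest of the 22810, the filter kept 15922, those whose mean over all arrays reached the 30th percentile (42.3), and all 7 members passed; group means lay below it in 4 groups for AT3G15670 and in 1 each for AT3G17520 and AT2G23110. Signals were taken to log2 after adding 16, which makes differences of weak signals smaller, and limma 3.58.1 in R 4.3.3 fitted 1 mean for each of the 7 groups, with a variance trend. Tests were two-sided, with Benjamini-Hochberg adjustment over the kept probe sets in each comparison and 95% confidence intervals from the fit. No share of all probe sets was counted at an unadjusted p under 0.05. Tests of untreated seedlings over time had been planned. Those arrays may have entered the choice of the genes, so the differences are reported as a description. The fit was checked on simulated data. The number of arrays limits the precision. Genes are named through the platform annotation and the RefSeq table of TAIR10.1; coordinates are not printed. Named are the 7 members, up to 6 called genes of each list, and the 6 genes of likest pattern; 3 more were named after their values were seen (AT2G23120 below, and LTI30 and COR47 with 5929745). The planned description of protein and promoter sequences was not made. Alternatives were the offset, the filter, quantile normalization, the variance trend, the replicate number as a block, leaving out each array, and fitting only the groups compared. Added after seeing the data were counts of members whose arrays do not overlap, with 0 h arrays in place of untreated ones.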

Additional observations from a re-analysis of the deposited data

Results flagged for a closer look

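For 5 values both arrays with 7606596 lay above both 0 h arrays while both arrays with 5929745 at the same dose and time lay below them. The difference was not tested, since the genes were chosen on 7606596. At 3 h these were AT3G15670, with a log2 difference between the compounds of 2.88, AT3G17520 (2.51), AT3G02480 (2.48) and AT3G53040 (1.79), and 1.11% of all probe sets were arranged in this way. At 12 h it was AT2G23110, with a difference of 1.68, and 0.653% of all probe sets were so arranged. Untreated arrays of the same times also lay below both 0 h arrays for each of these, so the position below 0 h is not shown to belong to 5929745.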

How the results depend on the processing

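With 2 arrays a group, single arrays decided several calls. Of 704 tests of single genes under an alternative, 622 kept their direction and side of the threshold, 76 lost a call and 5 gained one. In 1 the direction turned: LEA18, 5929745 at 12 h against 3 h, was 0.81 without 5929745 12 h replicate 1 (-0.92 without replicate 2). Of 539 untested values of the 7 genes, 25 moved by more than their spread and 0 reversed. AT3G15670 moved most (7606596 against untreated at 12 h, 5.29 with an offset of 1 and 1.92 with an offset of 64).

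Counts of calls in untreated seedlings over time, whose arrays may have entered the choice of the genes, are given only as counts. For the 7 genes, 3 were called for untreated seedlings at 3 h against 0 h with an offset of 1 and without the variance trend, and 2 to 4 without 1 array. For 5929745 at 12 h against 3 h, 1 was called with an offset of 1, without the filter, with quantile normalization and without the trend, and 1 to 2 without 1 array. For untreated seedlings at 12 h against 3 h, 1 was called with only the groups compared and 1 to 3 without 1 array. Without 1 array there were 6 to 7 calls for untreated seedlings at 12 h against 0 h, 2 to 6 and 6 to 6 for 5929745 at 3 h and 12 h against 0 h, and 0 to 0 and 0 to 1 for 5929745 against untreated seedlings. With 0 h arrays in place of untreated ones, both 7606596 arrays lay above for 1 gene at 12 h and for 5 at 3 h. Against untreated arrays they lay above for all 7 genes at both times. Leaving out an array cannot undo such a separation, so it gives no check of that count.

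For the other LEA genes with 7606596 at 3 h, 3 were called with an offset of 1, without the filter and without the trend. Fewer calls than in the main fit were made on leaving out any array compared. Without 7606596 3 h replicate 2 they included a call in the lower direction. At 12 h, 1 was called without the filter, 0 without the trend and 0 to 3 without 1 array. With 5929745 it was 0 to 0 at both times without 1 array, and 1 (LTI30) at 3 h with only the groups compared. Beyond fewer arrays in the fit, the cause was not tested.

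Same-numbered replicates did not deviate together: over 21 pairs of groups r was -0.20 to 0.12 (median 0.01), with 1 pair over 0.1. With the replicate block, 1 other LEA gene was called with 5929745 at 12 h (COR47, 0.46, adjusted p = 0.0432) and AT4G36600 lost its call with 7606596 at 3 h (adjusted p = 0.0523); no other call of these genes changed. The seed maturation and abscisic acid lists gave no value under any setting.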

Other observations

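AT2G23110 and AT2G23120 are neighbouring protein-coding genes of the same LEA family, and their probe sets followed different patterns. AT2G23120 had means of 2133 ± 562 at 0 h, and at 3 h of 2338 ± 12.3 in untreated seedlings, 3110 ± 467 with 5929745 and 3073 ± 318 with 7606596. At 12 h the means were 1113 ± 51.2, 1255 ± 77.2 and 1316 ± 130 in the same order. AT2G23120 was thus lower at 12 h than at 3 h in each condition, and with 7606596 it was within the spread of 5929745 at both times, where AT2G23110 was 4.00 and 3.94 times as high with 7606596 as with 5929745. The pair was picked after the values were seen.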
